A study of Arabidopsis thaliana with 9 samples.

Results

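The type-A response regulators of Arabidopsis thaliana are short proteins that take up the cytokinin signal and hold it back. The 9 genes described here, ARR3, ARR4, ARR5, ARR6, ARR7, ARR8, ARR9, ARR15 and ARR16, were taken by their gene identifiers from a table of 27206 genes. They were followed in leaves of wild-type plants of the Col-0 ecotype in 3 groups, namely before wounding, at 30 min after it and at 60 min after it. Each group held 3 libraries, 9 in all, made from polyadenylated RNA. All plants had spent 3 days at 4 °C as sown seed and then grew in short days at 23 °C by day and 19 °C by night, at 45% humidity. No group of unwounded leaves harvested beside the wounded ones was analysed here, so an effect of wounding and an effect of the hour cannot be told apart. The title of the study joins evaporative cooling with the healing of wounds, but no group differs in humidity or temperature by its labels.

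Cytokinins are hormones of cell division, leaf growth and leaf ageing. A cytokinin bound to a membrane histidine kinase (AHK2, AHK3 or AHK4) starts a phosphorelay, in which histidine phosphotransfer proteins (AHPs) carry a phosphate from the receptor to response regulators in the nucleus. Type-B regulators are transcription factors that switch on the cytokinin response once phosphorylated. Among the genes they switch on within minutes are those of the type-A regulators, which have the same phosphate-accepting receiver domain but no DNA-binding domain and damp the signal, a negative feedback. In leaves the family is also known for ties to light and temperature: ARR4 binds phytochrome B, and ARR5, ARR6, ARR7 and ARR15 are known to be induced by cold.

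The members fall into pairs of close relatives. Proteins translated from the RefSeq coding sequences of TAIR10.1 ran from 165 residues in ARR16 to 323 in the ARR3 model, and aligned positions were 83.0% identical between ARR3 and ARR4, 81.4% between ARR5 and ARR6, 75.7% between ARR8 and ARR9 and 72.8% between ARR7 and ARR15. The lowest identity of any 2 members was 46.9%, between ARR9 and ARR15. After the aspartate that accepts the phosphate, ARR16 has 72 residues, ARR5 97 and ARR6 100, against 147 in ARR8, 154 in ARR9 and 164 in ARR4.

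Since type-A genes are known as direct targets of type-B regulators, the stretch just before the gene start is shown for the 3 members that were lower at both times after wounding (ARR5, ARR8 and ARR9) and for 2 that did not pass the test at either time (ARR4 and ARR7). Sequences are the 250 bases before the annotated start on the strand of the gene, from the RefSeq annotation of TAIR10.1. Capitals mark the short core bound by type-B regulators, AGATT or AGATC, and their reverse complements AATCT and GATCT. ARR5 lies on the minus strand of chromosome 3 (chr3:17760951-17761200), ARR8 on the plus strand of chromosome 2 (chr2:17221590-17221839) and ARR9 on the plus strand of chromosome 3 (chr3:21108809-21109058). ARR4 lies on the minus strand of chromosome 1 (chr1:3444361-3444610), as does ARR7 (chr1:6579315-6579564).
ARR5: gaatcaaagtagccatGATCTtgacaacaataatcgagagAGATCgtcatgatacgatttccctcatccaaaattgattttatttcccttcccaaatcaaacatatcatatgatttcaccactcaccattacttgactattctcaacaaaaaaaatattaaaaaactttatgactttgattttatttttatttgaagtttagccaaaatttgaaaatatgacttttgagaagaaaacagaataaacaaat
ARR8: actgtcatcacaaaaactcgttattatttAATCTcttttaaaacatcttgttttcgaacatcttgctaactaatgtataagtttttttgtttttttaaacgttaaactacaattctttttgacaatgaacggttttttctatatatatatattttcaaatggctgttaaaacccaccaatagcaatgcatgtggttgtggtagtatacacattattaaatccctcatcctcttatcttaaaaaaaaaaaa
ARR9: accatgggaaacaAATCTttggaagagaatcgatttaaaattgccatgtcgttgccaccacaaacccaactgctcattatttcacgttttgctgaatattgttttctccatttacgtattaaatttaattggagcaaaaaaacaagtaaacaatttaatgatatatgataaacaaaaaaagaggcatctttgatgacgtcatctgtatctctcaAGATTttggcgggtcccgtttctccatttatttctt
ARR4: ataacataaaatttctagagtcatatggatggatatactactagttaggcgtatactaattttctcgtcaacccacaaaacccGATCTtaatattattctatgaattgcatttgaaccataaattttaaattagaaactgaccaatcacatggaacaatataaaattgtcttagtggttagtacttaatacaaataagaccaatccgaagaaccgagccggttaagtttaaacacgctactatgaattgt
ARR7: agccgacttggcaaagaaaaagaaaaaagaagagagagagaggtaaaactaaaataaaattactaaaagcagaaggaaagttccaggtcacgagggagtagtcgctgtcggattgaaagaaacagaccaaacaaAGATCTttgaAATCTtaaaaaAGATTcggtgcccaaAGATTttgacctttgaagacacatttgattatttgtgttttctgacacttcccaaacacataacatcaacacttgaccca

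In the window from 250 bases before to 50 bases after the start, ARR7 had 9 matches to these cores and ARR16 had 7, with AGATCT counted once on each strand. ARR6 had 4 and ARR8 had 3, while ARR4, ARR5, ARR9 and ARR15 each had 2 and ARR3 had 1. AGATT was found in 8 of the 9 members, against 69.7% of 27443 promoters of the same length, and AGATC was found in 4 of the 9, against 32.0%. The longer AGATACG, the G-box CACGTG and the evening element AAATATCT, searched on both strands, were in 0 of 9 members. They were found in 2.04%, 7.68% and 5.65% of all promoters.

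Total counts were 22470198 to 22970735 per library before wounding, 14300929 to 22603929 at 30 min, then 22072126 to 22477982 at 60 min. Pairs of replicates differed beyond counting error, at a chi-square per degree of freedom of 6.91 to 41.1. The labels do not say which plants each sample came from, so p-values measure the spread between these samples. The leaf label held: 5 leaf markers took 13.7% to 15.1% of the counts before wounding, 12.3% to 14% at 30 min, then 12.2% to 13.4% at 60 min. STM, WUS and CLV3 of the shoot meristem had 0 counts in all 9 libraries, no gene of the root list exceeded 13 counts and no gene of the flower list exceeded 25. Summed markers of the vasculature and guard cells were at 148 to 202 CPM (counts scaled to a common library size) before wounding, 151 to 226 at 30 min, then 157 to 173 at 60 min.

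After wounding, transcripts of the 8 type-A members tested fell or did not pass the test, and none rose. ARR8 and ARR9, a pair of close relatives, were over 2-fold lower by 30 min and as low at 60 min, and ARR5 was lower at both times as well. At 60 min the 2 scarce members ARR15 and ARR16 were called lower too, but these calls were lost in 6 and 7 of 16 alternatives. Neither gene differed between 30 and 60 min by the test. ARR4, the most abundant member, and ARR7 showed values after wounding that overlapped those before it. ARR3 had 0 counts in every library.

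Of the 9 members, 8 had enough counts to be tested. At 30 min 3 of the 8 were called lower and 0 higher (adjusted p under 0.05 by edgeR's quasi-likelihood test, with Benjamini-Hochberg adjustment over 17622 genes), where 28.0% of all tested genes were called, 13.4% lower and 14.5% higher. At 60 min 5 of the 8 were called lower and 0 higher, where 32.4% of all tested genes were called, 15.3% lower and 17.1% higher. The median log2 change of the 8 members was -0.82 at 30 min and -1.19 at 60 min, beside 0.02 and 0.06 over all tested genes. Both comparisons share the 3 libraries from before wounding. Log2 changes were below 0 for all 8 members at both times, but with library size as the only scaling those of ARR4 and ARR7 were above 0, at 0.03 and 0.08 at 30 min and 0.22 and 0.03 at 60 min. That scaling moved the median of all genes to 0.12 at 30 min and 0.28 at 60 min, and the share of called genes that were higher from 51.9% to 61.3% and from 52.9% to 70.9%. With it, 3 members were called lower at 60 min in place of 5. ARR5, ARR8 and ARR9 were called lower at both times, which held for 10.7% of all tested genes. In 5 members, these and ARR15 and ARR16, all 6 libraries after wounding were below all 3 before it, as in 16.3% of all tested genes. At 30 min alone 5 of 8 members were lower without overlap, beside 21.5% of all tested genes, and at 60 min alone also 5, beside 22.5%.

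Between 30 and 60 min 0 of the 8 members differed by the same test, where 2.02% of all tested genes were called, 1.30% lower and 0.721% higher. At an unadjusted p under 0.05 the count was also 0, where 2196 of all 17622 tested genes passed, and DESeq2 called 0 members. The members' median log2 change between the 2 times was -0.17, beside 0.02 over all genes. A test for any difference among the 3 times called 4 members (ARR5, ARR8, ARR9 and ARR16), where 32.1% of all tested genes were called. The call of ARR16 across the times (edgeR adjusted p = 0.0475) was lost without replicate 1, 2 or 3 from before wounding (0.0689, 0.21 and 0.122), without replicate 1 or 2 at 30 min (0.0787 and 0.0534) and without replicate 2 or 3 at 60 min (0.0714 and 0.0798). ARR15, not called across the times (0.0587), passed with RLE factors (0.0485) and without replicate 3 at 30 min (0.0489) or replicate 2 at 60 min (0.0121). As these are whole leaves, fewer cells of a type and less RNA per cell cannot be told apart in any of these values.

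**Figure D1:**
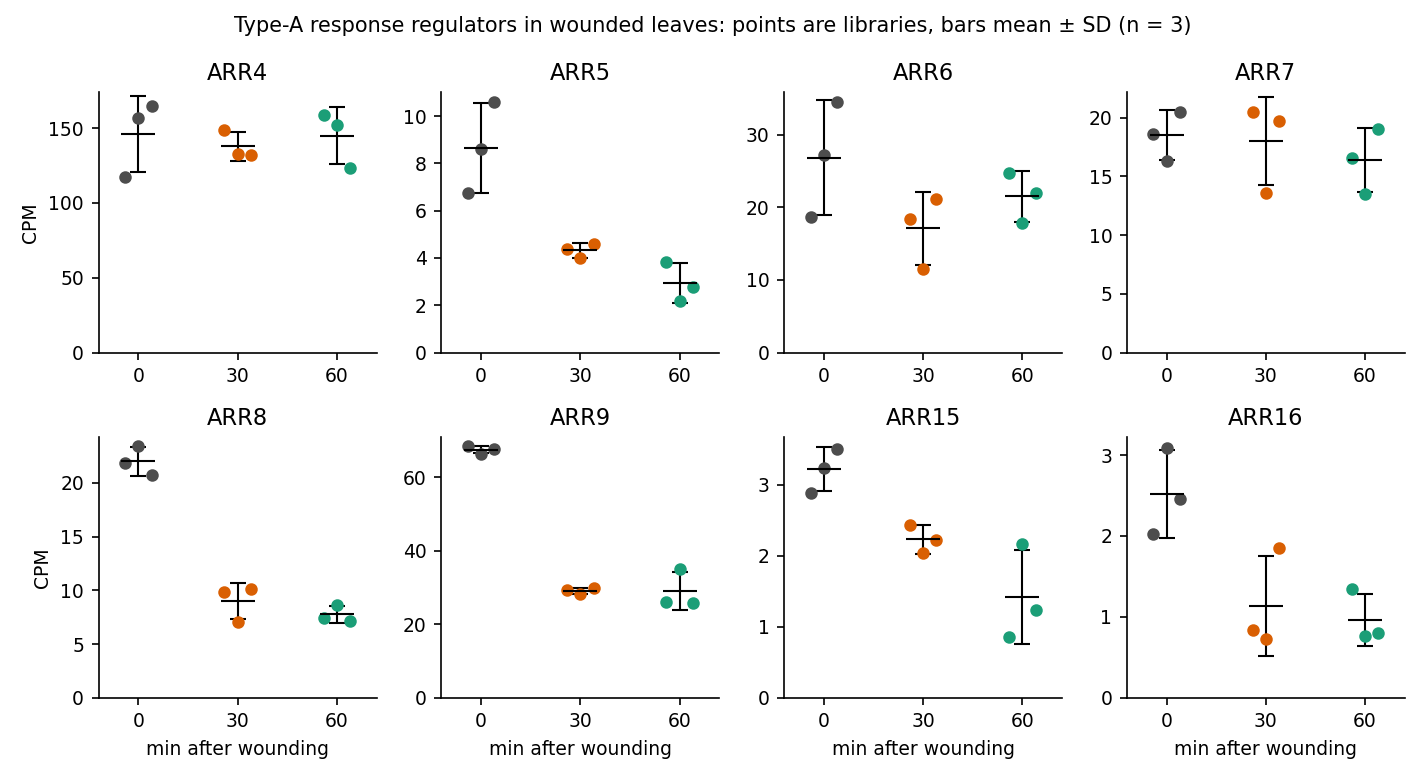
CPM of the 8 tested members (vertical axes, each from 0) in every library against min after wounding (horizontal axes); points are libraries and bars are mean ± SD of 3. ARR8 and ARR9 sit lower in all 6 libraries after wounding, from 22 to 8.99 and 7.76 CPM and from 67.5 to 29.1 and 29.0 CPM, while ARR4 and ARR7 overlap at all times.

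ARR8 and ARR9 are regulators with longer tails that cytokinin itself induces only weakly. ARR9 (AT3G57040) stood at 68.5, 66.4 and 67.6 CPM in replicates 1 to 3 before wounding, at 29.3, 28.1 and 29.8 CPM at 30 min and at 26.1, 35.1 and 25.9 CPM at 60 min. The groups before and after wounding did not overlap, and the highest value after wounding came from replicate 2 at 60 min. The mean was 67.5 ± 1.07 CPM (SD, n = 3) before wounding, and the level was 2.32-fold lower at 30 min (-1.21 on the log2 scale, SE 0.15, edgeR adjusted p = 4.09e-05) and 2.32-fold lower at 60 min (-1.22, SE 0.14, edgeR adjusted p = 3.5e-05). From 30 to 60 min the log2 change was 0.00 (edgeR adjusted p = 0.998).

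ARR8 (AT2G41310) stood at 21.8, 23.4 and 20.7 CPM before wounding, 9.82, 7.09 and 10.1 CPM at 30 min and 7.45, 8.64 and 7.18 CPM at 60 min. All 6 values after wounding were far below the lowest value before it, and those at 30 and 60 min overlapped. The level was 2.45-fold lower at 30 min (-1.29 on the log2 scale, SE 0.18, edgeR adjusted p = 0.000142) and 2.83-fold lower at 60 min (-1.5, SE 0.18, edgeR adjusted p = 3.7e-05). These 4 calls of ARR8 and ARR9 held in every alternative tried. Each of the 2 genes overlaps an annotated gene on the opposite strand, AT2G09250 for ARR8 and AT3G08825 for ARR9. Neither partner is in the table used here, and 83.9% and 91.2% of the 50-base stretches of ARR8 and ARR9 lie in no other gene. Whether the counting used strand is not given in the sources used here. A share of partner reads in the values of ARR8 and ARR9 could thus not be checked.

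ARR5 and ARR6 are the members best known as quick reporters of cytokinin, and ARR5 is a common marker of the response. ARR5 (AT3G48100) had 6.75, 8.60 and 10.6 CPM before wounding, 4.39, 3.98 and 4.60 CPM at 30 min and 3.84, 2.16 and 2.79 CPM at 60 min. The 3 times did not overlap and stepped downwards, although the step from 30 to 60 min did not pass the test (log2 change -0.56, edgeR adjusted p = 0.416). ARR5 was 2.0-fold lower at 30 min (-1.0 on the log2 scale, SE 0.26, edgeR adjusted p = 0.0114) and 2.95-fold lower at 60 min (-1.56, SE 0.27, edgeR adjusted p = 0.000572). Without replicate 3 from before wounding, the highest of its libraries, the adjusted p at 30 min was 0.0663. The call at 60 min held in every alternative.

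ARR6 (AT5G62920) had 18.7, 27.2 and 34.5 CPM before wounding, 18.4, 11.5 and 21.2 CPM at 30 min and 24.7, 17.8 and 22 CPM at 60 min. Its groups overlapped, and the 3 libraries from before wounding spread widely, with replicate 1 at the level of the wounded leaves. The log2 change was -0.65 at 30 min (95% interval -1.19 to -0.11, edgeR adjusted p = 0.07) and -0.32 at 60 min (95% interval -0.85 to 0.22, edgeR adjusted p = 0.356). At 30 min DESeq2 gave an adjusted p of 0.0463. Leaving out replicate 1 from before wounding gave 0.0239, replicate 3 at 30 min 0.0394 and replicate 2 at 60 min 0.0459, all with ARR6 lower. ARR6 overlaps AT5G62910 on the opposite strand, which had 367 to 728 counts per library and was higher at 60 min (log2 change 0.57, edgeR adjusted p = 0.0136). Only 75.4% of the 50-base stretches of ARR6 lie in no other gene, and whether the counting used strand is not given in the sources used here, so the value of ARR6 is uncertain in that respect.

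ARR7 and ARR15 are known from the shoot meristem, where the stem cell factor WUSCHEL represses them along with ARR5 and ARR6. The WUS gene had 0 counts here. ARR7 (AT1G19050) had 18.6, 16.3 and 20.5 CPM before wounding, 20.5, 13.6 and 19.7 CPM at 30 min and 16.6, 13.5 and 19.0 CPM at 60 min. The 3 groups covered the same range. Its log2 change was -0.04 at 30 min (95% interval -0.46 to 0.38, edgeR adjusted p = 0.903) and -0.18 at 60 min (95% interval -0.59 to 0.24, edgeR adjusted p = 0.521), so the intervals leave out a 2-fold fall at either time but not a smaller change.

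ARR15 (AT1G74890) was scarce, with 66, 67 and 70 counts before wounding and 20 to 57 counts in the 6 libraries after it. In CPM it had 2.89, 3.24 and 3.51 before wounding, 2.44, 2.04 and 2.22 at 30 min and 0.862, 2.16 and 1.24 at 60 min. Neither time after wounding overlapped the values before it, and replicate 2 at 60 min was as high as the libraries at 30 min. The log2 change was -0.53 at 30 min (95% interval -1.29 to 0.23, edgeR adjusted p = 0.295) and -1.17 at 60 min, 2.25-fold lower (SE 0.36, edgeR adjusted p = 0.0232). The call at 60 min was lost with library size as the only scaling (0.0868) and without replicate 2 or 3 from before wounding (0.0559 and 0.0659) or replicate 1 or 3 at 60 min (0.0836 and 0.0571).

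ARR16 (AT2G40670), which with its relative ARR17 is known from cells of the stomatal lineage, was the lowest of the tested members. It had 46, 64 and 49 counts before wounding and 12 to 45 after it, or 2.02, 3.09 and 2.46 CPM before wounding, 0.835, 0.728 and 1.85 CPM at 30 min and 1.34, 0.758 and 0.797 CPM at 60 min. No value after wounding reached the lowest one before it, and replicate 3 at 30 min came nearest. The log2 change was -1.12 at 30 min (95% interval -2.08 to -0.16, edgeR adjusted p = 0.0794) and -1.39 at 60 min, 2.61-fold lower (SE 0.45, edgeR adjusted p = 0.03). Without replicate 3 at 30 min the earlier change passed as well (0.0227). The call at 60 min was lost with library size as the only scaling (0.0701), without replicate 2 or 3 from before wounding (0.114 and 0.068) and without replicate 2 or 3 at 60 min (0.0779 and 0.0786). FAMA, a factor of the last step of guard cell formation, rose from 7.19 ± 0.991 CPM to 18.7 ± 0.786 at 30 min, then 19.1 ± 1.45 at 60 min (SD, n = 3; edgeR adjusted p = 3.77e-05 and 2.73e-05). SUC2, APL and KAT1, the other 3 genes of the vascular and guard cell list, did not pass the test at either time, and the part of cell makeup in the ARR16 values was not tested.

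ARR4, which binds and stabilises active phytochrome B and with ARR3 influences the period of the circadian clock, was the most abundant member. ARR4 (AT1G10470) had 117, 157 and 165 CPM before wounding, 149, 133 and 132 CPM at 30 min and 159, 152 and 123 CPM at 60 min. All 3 groups overlapped, and the spread was widest before wounding. The log2 change was -0.08 at 30 min (95% interval -0.42 to 0.25, edgeR adjusted p = 0.735) and -0.01 at 60 min (95% interval -0.35 to 0.32, edgeR adjusted p = 0.956). ARR3 (AT1G59940) was listed with 0 counts in all 9 libraries, which allows up to 0.114 to 0.209 CPM per library at a floor of 3 counts, for counting error only. No annotated gene overlaps ARR3, and every 50-base stretch of its exons lies in no other gene.

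**Figure D2:**
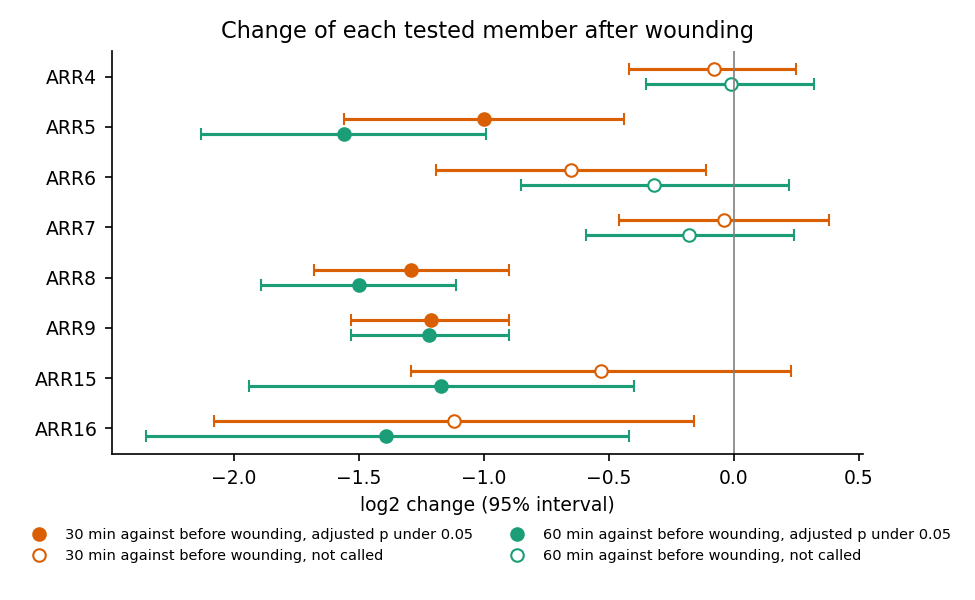
Log2 change (horizontal axis) of the 8 tested members at 30 and 60 min against before wounding, with 95% intervals; filled points passed an adjusted p of 0.05 in the edgeR test. Every point lies below 0 under TMM scaling; 3 are filled at 30 min and 5 at 60 min, and the intervals of ARR4 and ARR7 span 0 at both times.

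Whether close relatives changed unequally was tested on the ratio of the 2 genes within each library, which does not depend on scaling. For ARR5 against ARR6 the log2 ratio was -1.46, -1.65 and -1.69 before wounding, -2.05, -1.51 and -2.18 at 30 min and -2.66, -2.99 and -2.94 at 60 min. ARR5 was thus lowest relative to ARR6 in the 3 libraries at 60 min, and replicate 2 at 30 min overlapped the libraries from before wounding. The mean moved from -1.60 ± 0.13 (SD, n = 3) to -2.39 ± 0.58 (SD, n = 6), a difference of -0.79 (exact permutation test, two-sided, p = 0.0714, adjusted over 3 pairs 0.107). For ARR7 against ARR15 the mean log2 ratio was 2.49 ± 0.18 before wounding and 3.23 ± 0.62 after it, a difference of 0.74 (exact permutation test, two-sided, p = 0.0476, adjusted 0.107). ARR8 and ARR9 kept a similar ratio, with a mean of -1.62 ± 0.10 before and -1.79 ± 0.19 after wounding (difference -0.17, exact permutation test, two-sided, p = 0.19, adjusted 0.19). With 3 libraries against 6 the smallest possible p is 0.0238. No ratio of ARR3 to ARR4 could be formed with ARR3 at 0.

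The same test over all 28 pairs of tested members, added after the data had been seen, gave 0 pairs with an adjusted p under 0.05 (exact permutation tests, two-sided). The ratios of 9 pairs did not overlap between the libraries before and after wounding, and their p was the smallest the permutations can give, 0.0238, or 0.074 adjusted over the 28. Even that p could pass the adjustment only if more pairs also had a small p, so the count of 0 is no sign of equal change. In each of the 9, ARR4 or ARR7 stood against a member whose values after wounding were all lower, so these ratios repeat the values of the single genes. The largest shift was that of ARR4 to ARR8, with a difference of 1.36 in the log2 ratio.

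**Figure D3:**
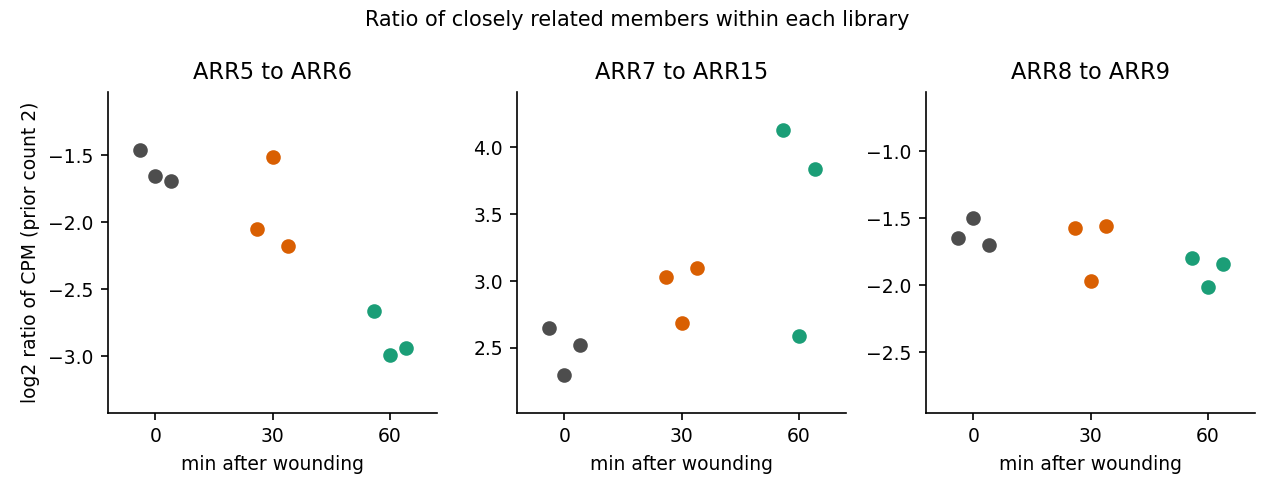
Log2 ratio of CPM (prior count of 2) within each library (vertical axes) against min after wounding (horizontal axes) for 3 pairs of close relatives; points are libraries. The ARR5 to ARR6 ratio is below -2.5 in the 3 libraries at 60 min, whereas the ARR8 to ARR9 ratio runs from -1.5 to -2.01 over all 9 libraries.

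Levels can be compared between members per length, as CPM divided by the kb of exon (RPKM). Exon lengths are those of RefSeq, while the annotation used for counting is not given, so the order is approximate. A share of reads from opposite-strand genes in ARR6, ARR8 and ARR9 could not be checked. Before wounding ARR4 led with 69.7 ± 12.1 RPKM (SD, n = 3), followed by ARR9 with 35.6 ± 0.565 RPKM. ARR7 with 19.6 ± 2.25 RPKM and ARR6 with 18.4 ± 5.42 RPKM overlapped and had no order beyond their spread. Below them came ARR8 with 9.27 ± 0.575 RPKM, ARR5 with 5.96 ± 1.32, ARR15 with 2.98 ± 0.287 and ARR16 with 1.22 ± 0.261, none of which overlapped its neighbour in this order. After wounding ARR9 dropped below ARR7 by its mean, with 15.4 ± 0.460 RPKM at 30 min and 15.3 ± 2.77 at 60 min, where it overlapped ARR7 (19.1 ± 4.00 and 17.3 ± 2.91 RPKM). The order of the other members stayed the same by their means.

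The makeup of the 9 genes shifted towards ARR4, with the same limits of exon length and strand. The summed level of the 9 genes was 142 to 180 RPKM in the libraries before wounding, 108 to 131 at 30 min, then 114 to 131 at 60 min. Without ARR4 the sum was 86.2 to 102 RPKM before wounding, 45.2 to 61.6 at 30 min, then 52.5 to 55.6 at 60 min. ARR4 made up 39.3% to 45.0% of the sum before wounding, 50.6% to 58.3% at 30 min, then 51.5% to 58.0% at 60 min. None of these 3 ranges before wounding overlapped that at 30 or at 60 min.

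**Figure D4:**
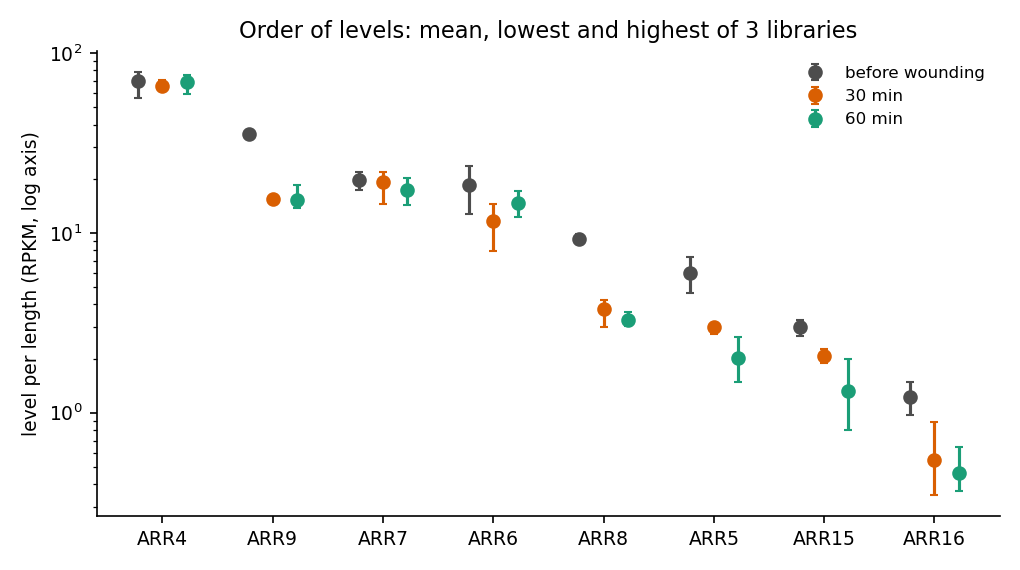
Level per length (RPKM, vertical log axis) of the 8 members with counts, ordered by their mean before wounding; points are means of 3 libraries and bars run from the lowest to the highest library. ARR9 falls from 35.6 to 15.4 RPKM at 30 min, into the range of ARR7, while ARR4 has means of 69.7, 65.7 and 69 RPKM at the 3 times.

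Upstream of the members, the receptors and phosphotransfer proteins changed in 1 of 8 tested genes of 9 listed. Of all tested genes, 28.0% were called at 30 min and 32.4% at 60 min. AHK4, the receptor also called CRE1, had 6.62, 7.54 and 8.98 CPM before wounding, 2.16, 4.03 and 3.16 CPM at 30 min and 2.63, 3.83 and 1.42 CPM at 60 min. Its values after wounding were all below those before it (2.45-fold lower at 30 min, edgeR adjusted p = 0.0115, and 2.92-fold lower at 60 min, 0.00349). Without replicate 1 at 30 min the first of these adjusted p-values was 0.0549. AHK2 and AHK3, the other receptors, had log2 changes of 0.37 and -0.15 at 30 min, then 0.26 and -0.09 at 60 min, and neither passed the test. The median log2 change of the list was 0.31 at 30 min and 0.04 at 60 min.

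Type-B regulators, the activators of type-A genes, moved in both directions. Of 11 listed genes 6 were tested, of which 2 rose and 3 fell by 30 min, while 1 rose and 2 fell by 60 min. The shares called over all tested genes were 28.0% and 32.4%. The median log2 change of the list was -0.38 and -0.26. ARR2 rose from 7.19 ± 1.48 CPM to 15.4 ± 1.95 at 30 min, then 16.7 ± 2.33 at 60 min (SD, n = 3; edgeR adjusted p = 0.000949 and 0.000382). ARR12 fell from 34.6 ± 5.16 CPM to 18.1 ± 2.55 at 30 min (edgeR adjusted p = 0.00104) and stood at 23.9 ± 2.86 at 60 min (0.0255). ARR11, at 2.49 ± 0.422 CPM before wounding, had a log2 change of -1.68 at 30 min (edgeR adjusted p = 0.0134) that stood at -1.24 by 60 min (0.0435). The remaining calls, ARR1 higher and ARR14 lower at 30 min (log2 changes 0.53 and -0.67, edgeR adjusted p = 0.0195 and 0.0325), are named after their values were seen. ARR10, which acts with ARR1 and ARR12 as a main activator, had log2 changes of -0.08 at 30 min, then 0.00 at 60 min, and was not called.

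Several of the type-B calls rested on single libraries or on scaling. ARR12 at 60 min was lost with library size as the only scaling (edgeR adjusted p = 0.116), without replicate 2 or 3 from before wounding (0.119 and 0.0722) and without replicate 2 at 60 min (0.0822). ARR11 at 60 min was lost with that scaling (0.109), without each of replicates 1, 2 and 3 from before wounding (0.108, 0.12 and 0.0587) and without replicate 1 or 3 at 60 min (0.103 and 0.113). ARR1 was lost without replicate 1 or 2 from before wounding (0.0755 and 0.0743) or replicate 2 at 30 min (0.0948), and ARR1 was called higher at 60 min too with library size alone (0.00358). ARR14 was lost with library size alone (0.109), without each of replicates 1, 2 and 3 from before wounding (0.0666, 0.104 and 0.0533) and without replicate 1 at 30 min (0.127).

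The KMD proteins, F-box proteins that mark type-B regulators for degradation, split as well. KMD1 had 95.4, 123 and 147 CPM before wounding, 47.5, 78.3 and 46.8 CPM at 30 min and 54.8, 46.8 and 81.4 CPM at 60 min, every wounded library below those from before wounding. KMD1 was 2.11-fold lower at 30 min and 2.0-fold lower at 60 min (edgeR adjusted p = 0.00473 and 0.00664). KMD2 went the other way, from 2.64 ± 1.06 CPM to 9.87 ± 2.15 at 30 min, then 17.8 ± 10.5 at 60 min (SD, n = 3; edgeR adjusted p = 0.00399 and 0.000275). KMD4, at 182 ± 14.9 CPM before wounding, was not called, and KMD3 was not tested. KMD3 and KMD4 share nearly all their exon sequence with genes on the opposite strand, so their counts are uncertain. The change of KMD2 between 30 and 60 min, not called with all libraries (edgeR adjusted p = 0.394), passed without replicate 2 at 60 min (0.0472).

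Of 18 listed genes of cytokinin synthesis, 8 were tested, of which 1 rose and 1 fell by 30 min, while 1 rose and 2 fell by 60 min. These counts are near the shares of all tested genes called, 28.0% and 32.4%. The isopentenyltransferases make the hormone's precursor, and 2 of them moved in opposite directions. IPT1, scarce before wounding at 0.353 ± 0.178 CPM, reached 1.22 ± 0.0991 at 30 min and 1.73 ± 0.246 at 60 min (SD, n = 3; edgeR adjusted p = 0.0152 and 0.00272). IPT3 went from 8.07 ± 1.65 CPM to 3.57 ± 1.64 at 30 min, then 3.98 ± 1.5 at 60 min (edgeR adjusted p = 0.0224 and 0.0355). LOG1, an enzyme that frees the active base, was lower at 60 min (29.6 ± 4.16 against 51.2 ± 11 CPM, edgeR adjusted p = 0.00565), a call lost with library size alone (0.0748). From 30 to 60 min LOG1 passed with DESeq2 (0.0269) and not with edgeR (0.1). Without replicate 1 or 3 from before wounding, IPT1 at 30 min had 0.0588 and 0.0523. IPT3 was lost at 30 min without replicate 2 or 3 from before wounding (0.0542 and 0.0879) or replicate 1 or 3 at 30 min (0.0925 and 0.0689). At 60 min IPT3 was lost without replicate 2 or 3 from before wounding (0.0753 and 0.123), without replicate 2 or 3 at 60 min (0.0667 and 0.107) and with library size alone (0.0923).

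The enzymes that remove cytokinin included the largest change among the pathway genes that were called at 30 min. UGT85A1, which stores cytokinins as O-glucosides, had 9.08, 8.22 and 10.4 CPM before wounding, 68.5, 71.0 and 57.6 CPM at 30 min and 72.8, 67.6 and 101 CPM at 60 min. Every wounded library was far above those from before wounding, 7.12-fold higher at 30 min and 8.72-fold at 60 min (edgeR adjusted p = 2.55e-07 and 1.18e-07). UGT76C2, which inactivates cytokinins by N-glucosylation, fell from 17.0 ± 2.50 CPM to 8.90 ± 0.567 and 8.03 ± 0.548 (SD, n = 3; edgeR adjusted p = 0.00129 and 0.000383). Of 10 listed genes 7 were tested, of which 1 rose and 2 fell by 30 min, while 2 rose and 1 fell by 60 min. Over all tested genes 28.0% and 32.4% were called. CKX6, a cytokinin oxidase, was higher at 60 min (17.2 ± 0.0992 against 9.57 ± 1.79 CPM, edgeR adjusted p = 0.00398). At 30 min CKX6 was not called (0.0931) except without replicate 2 at 30 min (0.0386). Only 9.7% of its 50-base stretches lie in no other gene, so this value is uncertain. CKX7, named after its values were seen, was lower at 30 min (log2 change -0.80, edgeR adjusted p = 0.0188). That call was lost without replicate 2 or 3 from before wounding (0.0806 and 0.0521) or replicate 3 at 30 min (0.0738), while without the latter CKX7 passed at 60 min (0.0458).

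Among 9 tested of 10 listed response factors and targets, 3 were higher and 1 lower at 30 min, and 3 were higher and 0 lower at 60 min. Beside them, 28.0% and 32.4% of all tested genes were called. The cytokinin response factors (CRFs) are AP2/ERF transcription factors that act beside the type-B regulators. CRF3 had 0.307, 0.580 and 0.452 CPM before wounding, 0.975, 2.14 and 0.739 CPM at 30 min and 2.93, 4.32 and 4.74 CPM at 60 min, without overlap between any 2 times. The log2 change of CRF3 was 1.52 at 30 min (edgeR adjusted p = 0.033) and 3.15 at 60 min (0.000235). CRF4 rose from 4.00 ± 0.558 CPM to 6.45 ± 1.02 at 30 min, then 10.2 ± 1.28 at 60 min (SD, n = 3; edgeR adjusted p = 0.0299 and 0.000352). GATA22, a cytokinin target also called CGA1, dropped at 30 min with a log2 change of -0.98 (edgeR adjusted p = 0.0103) and was not called at 60 min (-0.31, 0.365). CRF1 at 30 min (1.82, edgeR adjusted p = 0.027) and CRF5 at 60 min (1.01, 0.024) were the other rises, named after their values were seen. At 60 min the type-A members had a median log2 change of -1.19 and these genes one of 0.40.

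The CRF calls at 30 min, and that of CRF5 at 60 min, were also lost without single libraries. Those of CRF3 and CRF4 at 60 min held in every alternative. At 30 min CRF3 had an edgeR adjusted p of 0.107, 0.0513 and 0.0843 without replicate 1, 2 or 3 from before wounding. A fit to only the 2 groups compared gave 0.0604, and leaving out replicate 2 at 30 min gave 0.185. The change of CRF3 from 30 to 60 min (0.0764) passed without that library (0.0293) and with DESeq2 (0.0154). CRF4 at 30 min had 0.0761 and 0.122 without replicate 1 or 2 from before wounding and 0.0599 and 0.109 without replicate 1 or 2 at 30 min. CRF1 at 30 min had 0.0761 and 0.0534 without replicate 1 or 3 from before wounding and 0.0695 and 0.0513 without replicate 1 or 2 at 30 min. CRF5 at 60 min had 0.0817 without replicate 1 from before wounding and 0.073 and 0.0587 without replicate 1 or 3 at 60 min. From 30 to 60 min 0 genes of all 6 pathway lists were called by edgeR, where only 2.02% of all tested genes were called. At an unadjusted p under 0.05 there were 5 response factors or targets, 1 type-B regulator and 1 KMD gene higher and 1 gene of synthesis lower. At that threshold 2196 of all 17622 tested genes differed. DESeq2 called 2 genes of the 6 lists, CRF3 higher and LOG1 lower, and 702 of all tested genes.

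**Figure D5:**
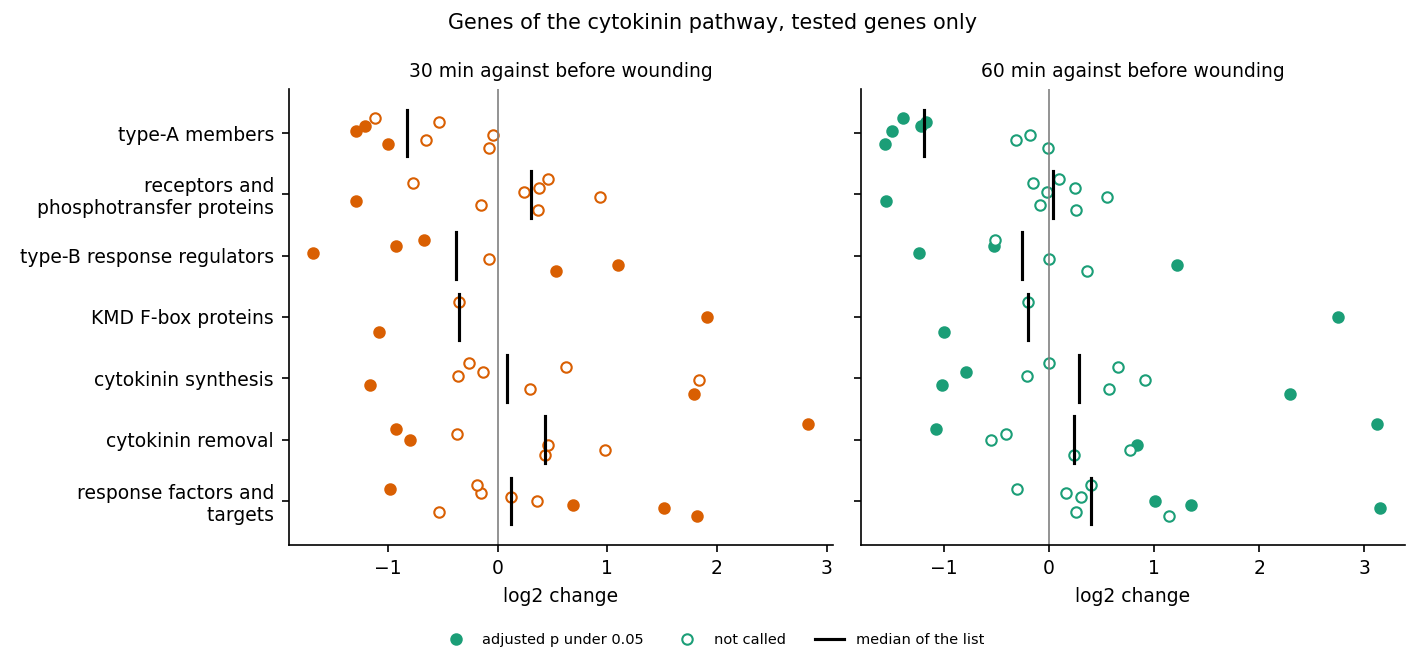
Log2 change against before wounding (horizontal axes) of every tested gene of the type-A family and 6 lists of pathway genes (rows) at 30 min (left) and 60 min (right); filled points passed an adjusted p of 0.05 and black lines are list medians. At 60 min the type-A row has its median at -1.19 and no filled point above 0, and the other rows have medians from -0.26 to 0.40.

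Genes of the clock moved over the same hour and are given beside the members for that reason. CCA1, a morning factor of the clock, went from 87.3 ± 9.46 CPM before wounding to 21.0 ± 0.228 at 30 min and 12.5 ± 3.00 at 60 min (SD, n = 3; edgeR adjusted p = 2.04e-06 and 2.14e-07). TOC1, an evening factor, went from 10.3 ± 2.33 CPM to 26.1 ± 5.84 and 19.8 ± 1.61 (edgeR adjusted p = 0.000258 and 0.00276). JAZ7, a jasmonate response gene, rose from 0.696 ± 0.285 CPM to 170 ± 10.2 at 30 min and stood at 18.1 ± 6.49 at 60 min (SD, n = 3), with all 6 libraries after wounding above all 3 before it. The part of the hour in the falls of ARR5, ARR8, ARR9, ARR15 and ARR16 cannot be told apart from that of wounding. Among the leaf markers RBCS1A and RCA were lower at 60 min (log2 changes -0.62 and -0.68, edgeR adjusted p = 0.0467 and 0.0159). RCA was lost without replicate 1 or 2 from before wounding (0.0507 and 0.0619) or replicate 2 at 60 min (0.057). RBCS1A was lost without each of replicates 1, 2 and 3 from before wounding (0.0645, 0.137 and 0.167) and without replicate 1 at 30 min (0.0646). It was also lost without replicate 2 or 3 at 60 min (0.132 and 0.111), with RLE factors (0.0522) and with no filter on low counts (0.0553).

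The genes whose pattern over the 9 libraries was most like that of ARR9, the member with the smallest p across the 3 times, were CYP709B3 (AT4G27710), SPA3 (AT3G15354) and CYP707A2 (AT2G29090), with a Pearson r of log2 CPM of 0.989, 0.989 and 0.987. The libraries share depth and group, so these values are a description. CYP709B3, a cytochrome P450 gene, went from 151 ± 6.83 CPM to 78.1 ± 6.22 and 76.3 ± 7.47, and SPA3, a repressor of light signalling, from 46.3 ± 3.53 CPM to 10.1 ± 1.82 and 9.16 ± 1.51 (SD, n = 3). CYP707A2, an abscisic acid hydroxylase, went from 13.2 ± 1.38 CPM to 1.39 ± 0.369 and 1.57 ± 0.688. As in ARR9, the 30 and 60 min values of these genes were near each other and below every value from before wounding. This follows largely from how the genes were picked. In 16.3% of all tested genes all 6 libraries after wounding were below all 3 before it.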

How the data were processed

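Polyadenylated RNA of 9 leaf samples was measured, with libraries made by the TruSeq RNA kit from TRIzol extracts, per the labels' protocols. The authors deposited raw counts of reads per gene, whole numbers with no normalization. FastQC 0.11.8, Trimmomatic 0.36, HISAT2 2.2.0, featureCounts and TAIR10 are named in the submitters' processing notes. The annotation, strand use and parameters are not given in the sources used here. Columns were matched to samples by the library names in the labels, with 0 columns left over.

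Genes were filtered with filterByExpr (17622 genes kept, with 99.96% of counts, while 5636 had no count) and tested in R 4.3.3 with edgeR 4.0.16 (TMM, glmQLFit, glmQLFTest) in 1 fit to all samples with only the group as a term (common biological coefficient of variation 0.217). P-values are two-sided and adjusted by Benjamini-Hochberg over all tested genes, and called means an adjusted p under 0.05. CPM are relative to TMM-scaled totals. RPKM divide CPM by exon length in the RefSeq annotation of TAIR10.1. The SE of a log2 change is its size divided by the root of the F statistic, and 95% intervals use it with the t distribution, so both are approximate. Floors and intervals of counts cover counting error only. The fit was also run on simulated data with far fewer changed genes than were called here against before wounding. That run does not test the scaling of these data. Ratios within libraries were log2 with a prior count of 2, compared by exact permutation over samples. The test was planned for 4 pairs and run for 3, since ARR3 had no counts.

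The members, lists and alternatives (library size only, RLE factors, DESeq2 1.42.0, no filter, 2 groups only, replicate block, a threshold of 0.01, leaving out each library) were chosen with earlier results of these data known. Beside all members, the text names from each list up to 3 called genes with the smallest p across the times, the 3 genes most like the member with the smallest p, and CCA1, LHY, TOC1 and JAZ7 as context. Proteins were translated from RefSeq coding sequences, and the aspartate was found by a motif loosened by 1 letter after the plan was fixed.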

Additional observations from a re-analysis of the deposited data

Results flagged for a closer look

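Of the genes named, 2 changed between 30 and 60 min by the direct test of the 2 times, and neither is a type-A regulator. JAZ7 fell back with a log2 change of -3.24 (edgeR adjusted p = 1.66e-05), from 163, 182 and 167 CPM at 30 min to 14.3, 14.3 and 25.6 CPM at 60 min, and this held in every alternative. CCA1 went on falling with a log2 change of -0.75 (edgeR adjusted p = 0.0399), from 21.2, 20.8 and 21.0 CPM to 12.0, 15.7 and 9.79 CPM. That call of CCA1 was lost in 10 of 16 alternatives. Its adjusted p reached 0.232 with library size as the only scaling, and it was 0.0632, 0.0528, 0.129, 0.0732, 0.171 and 0.086 without, in turn, replicates 2 and 3 from before wounding, replicates 1 and 2 at 30 min and replicates 1 and 3 at 60 min.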

How the results depend on the processing

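No direction of a called member reversed. Over 488 values of the members under alternatives, 456 kept their side of the threshold, 24 lost the call, 8 gained it and 0 reversed. These counts overstate stability. They include values between 30 and 60 min, where no member was ever called, and values across the 3 times, which have no direction. The signs of ARR4 and ARR7, which were not called, did change with library size only. Over 1830 values of the other named genes, 1682 kept it, 134 lost it and 14 gained it. The members called at 60 min were 5, and 3 with library size only or with a threshold of 0.01. Leaving out 1 library gave 2 to 5 members at 30 min, where 3 were called (5 without replicate 3 at 30 min), 3 to 5 at 60 min (3 without replicate 2 or 3 from before wounding or replicate 3 at 60 min), 0 between 30 and 60 min and 3 to 5 across the 3 times. With a threshold of 0.01 the genes called were 2981 at 30 min, 3494 at 60 min, 143 between the times and 3466 across them, in place of 4930, 5704, 356 and 5650. Between 30 and 60 min DESeq2 called 702 genes. Leaving out 1 library gave 3474 to 5407 genes at 30 min, 4063 to 6057 at 60 min, 161 to 480 between the times (161 without replicate 1 at 60 min, 162 without replicate 1 at 30 min) and 3861 to 5675 across them. For the 3 ratios, none of which passed, the differences kept their sign. They were -0.31 at 30 min and -1.26 at 60 min alone for ARR5 and ARR6, 0.45 and 1.04 for ARR7 and ARR15 and -0.08 and -0.27 for ARR8 and ARR9. Neither those 3 against 3 comparisons nor those without a library from before wounding can reach a p under 0.05. Those without a library after wounding can pass once adjusted only if all 3 ratios have the smallest p. Unchanged calls in these alternatives therefore say nothing about stability. The cause of these shifts was not tested.

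Replicate numbers showed no sign of pairing the samples, although these values cannot exclude it. Deviations of same-numbered samples had r from -0.365 to 0.156 over 9 pairs, and those of differently numbered samples from -0.3 to 0.342 over 18. With a replicate block the genes called were 4006 at 30 min, 4728 at 60 min, 223 between the times and 4458 across them, and the members called were 3, 4, 0 and 3, with ARR16 at an edgeR adjusted p of 0.0592 at 60 min and 0.0889 across the times. With the block these named genes also no longer passed: at 30 min CRF4 (0.0615), ARR14 (0.0636) and CRF1 (0.0655), at 60 min ARR12 (0.0592), ARR11 (0.065), IPT3 (0.0678), RCA (0.0523) and RBCS1A (0.11), between the times CCA1 (0.0747) and across them IPT3 (0.0553), RCA (0.117) and ARR1 (0.0819). Depth limits ARR15 and ARR16 most, with 12 to 57 counts per library after wounding.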

Other observations

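Of the 3 other short response regulators looked at, none had enough counts to be tested. ARR22 and ARR24 had 0 counts in all 9 libraries. ARR17, the closest relative of ARR16 but not among the members described here, had 1 count in 1 library before wounding. It had 1 count in 1 library at 30 min and 14 counts in replicate 2 at 60 min, with 0 in the other 6. LOG2, named after its values were seen, had 4, 2 and 5 counts before wounding and 0 in the 6 libraries after it, so its level before wounding was near the floor of 3 counts. LHY, the partner of CCA1 in the clock, went from 44.7 ± 2.28 CPM before wounding to 13.0 ± 4.43 at 30 min and 9.11 ± 3.13 at 60 min (SD, n = 3; edgeR adjusted p = 0.000254 and 3.31e-05).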
